A study of Mus musculus with 7 samples.

Results

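The Bcl2 family decides whether the outer mitochondrial membrane of a cell stays intact or is opened in apoptosis. Its 10 members considered here were 3 survival genes (Bcl2, Bcl2l1 and Mcl1), 2 effector genes (Bax and Bak1) and 5 genes of the BH3-only branch (Bbc3, Pmaip1, Bcl2l11, Bid and Bad). The members were the rows of the deposited table that the platform annotation assigns to one of these genes alone. That gave 11 probe sets for 9 genes, out of 25335 annotated probe sets in a table of 41155. Bcl2 and Mcl1 had 2 probe sets each. No row was assigned to Bax alone, and Bax was not analysed here. A further row was shared between Bad and Gpr137 and was left out by the same rule.

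Expression was measured on 7 single-channel arrays of hematopoietic stem cells (HSCs), the rare marrow cells that give rise to all blood lineages. There were 3 arrays of Ahr knockout mice (Ahr-KO) and 4 of mice with wild-type Ahr (WT), all on a C57BL/6J background and killed at 8 weeks of age. Ahr encodes the aryl hydrocarbon receptor, a transcription factor activated by aromatic ligands. Marrow had been depleted of lineage-positive cells and the HSCs taken by SLAM surface markers, and small amounts of total RNA were amplified and labelled as biotinylated cDNA. The labels do not name the knockout allele, the sex of the mice, or whether each array stands for a separate mouse or a pool. P-values therefore measure only how far these arrays scatter, and that scatter may be technical.

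In background terms, the survival proteins hold the effectors Bax and Bak in check, and BH3-only proteins release them, either by occupying the survival proteins or by engaging the effectors directly. Once Bax or Bak has opened the outer membrane, cytochrome c leaves the mitochondrion and the Apaf1 apoptosome activates caspases. In mouse HSCs, loss of Mcl1 is known to deplete the stem cell pool, and forced expression of Bcl2 is known to enlarge it.

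AhR binds DNA at response elements with the core GCGTG, embedded in the longer motif TNGCGTG. Both were searched on both strands in RefSeq promoter windows (GRCm38.p6) that reach from 250 bases before to 50 bases after each annotated start. Of the 10 members, all but Pmaip1 had at least 1 window, 15 in all. The core lay in 8 of these 15 windows (53.3%), against 32.4% of all 32851 windows, and the longer motif, which contains the core, in 1 of 15 (6.67%) against 5.07%. Several windows of a gene overlap or lie close together, so the 15 are not independent. The 8 windows were 3 of Bbc3, 2 of Bad, 2 of Bcl2l1 and 1 of Bcl2l11. By gene, these 4 carried the core, and Bcl2, Mcl1, Bax, Bak1 and Bid did not within these windows. The share of all 27025 genes that carry the core was not counted, so the count by gene has no background beside it. Bcl2l1 and Bcl2l11 were the members with the largest positive and negative genotype differences, and a link between core and expression was not tested. A Bcl2l1 core 23 bases after a start is not shown. The stretches below show the core, in capitals: all 3 of Bcl2l11, 1 of 2 of Bcl2l1, 1 of 6 of Bbc3 and 1 of 4 of Bad. Each reads 5′ to 3′ on the gene's own strand, where CACGC is the core on the other strand.
Bcl2l11, chr2:128125825-128125849, plus strand, 203 bases upstream of a start, the match to the longer motif: gtgggcggcgCACGCaaactgcagg
Bcl2l11, chr2:128125806-128125830, plus strand, 222 bases upstream: ctagggtaaaCACGCcggggtgggc
Bcl2l11, chr2:128125882-128125906, plus strand, 146 bases upstream: tcgcagcctgCACGCgccagcggcc
Bcl2l1, chr2:152831800-152831824, minus strand, 86 bases upstream: ataaacgttcCACGCgcctgagact
Bbc3, chr7:16309535-16309559, plus strand, 38 bases upstream: cgggggcgggGCGTGggagccagcg
Bad, chr19:6941770-6941794, plus strand, 81 bases upstream: atcgcgttcgGCGTGcccatatggg
A match describes letters in a window, and AhR binding was not measured in these samples.

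The arrays were noisy as a whole. Pairwise correlations of log2 intensity over the annotated probe sets ran from 0.619 to 0.772, and between 30.7% (WT replicate 2) and 44.9% (WT replicate 4) of these probe sets exceeded a background mark. That mark was set per array at the 95th percentile of the intensities of 1108 olfactory receptor rows, and came to 33.8 to 42.8 units. The Ahr probe set did not check the genotype labels: it stood at 34.1, 137 and 26.4 on Ahr-KO arrays and at 31.3, 57.9, 14.9 and 20.5 on WT arrays, and the part of the gene it covers is not given. It exceeded the mark on Ahr-KO replicate 2 and WT replicate 2 only. On the log2 scale the probe set was 0.84 ± 0.73 (SE) higher in the arrays labelled Ahr-KO (limma adjusted p = 0.963), opposite to a loss of transcript. Leaving out Ahr-KO replicate 2, the highest array, gave 0.13. Ahr-KO and WT therefore stand for the labels throughout. Of 12 measured HSC and sort markers, 4 were higher and 8 lower in Ahr-KO, with a median log2 difference of -0.60. Kit, Hlf, Gata2 and Meis1 exceeded the mark on all 7 arrays. The SLAM marker Slamf1 exceeded it on all 3 Ahr-KO arrays but on 1 of 4 WT arrays. Its log2 difference was 2.58 ± 0.97 (SE; limma unadjusted p = 0.0288, adjusted p = 0.963), and its groups overlapped. Mecom was listed at 0 on WT replicate 2. Cd48, which SLAM sorting should leave low, exceeded the mark on all 3 Ahr-KO arrays and on 2 of 4 WT arrays. The Cd48 log2 difference was 1.84 ± 1.45 (SE; limma adjusted p = 0.963), and its groups overlapped.

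Transcripts of the Bcl2 family did not differ detectably between genotypes. At an adjusted p under 0.05 (limma, adjusted by Benjamini-Hochberg over 25335 probe sets), 0 of the 11 probe sets passed, and 0% of all those tested. At an unadjusted p under 0.05 from the same moderated test, 0 of 11 passed, against 4.21% of all tested. The 3 Ahr-KO values and the 4 WT values overlapped for all 11, where 5.74% of tested probe sets had groups that did not overlap. Values were higher in Ahr-KO for 6 probe sets and lower for 5. The median log2 difference, on the scale of intensity + 1, was 0.15, against -0.03 over all tested probe sets, and the median absolute difference was 0.26 against 0.52. The lowest adjusted p among the members was 0.963. The median standard error of a member's difference, 0.69, equalled that of all tested probe sets to 2 decimals. The 95% intervals of 10 of the 11 probe sets (all but Bak1) held a doubling in Ahr-KO and those of 10 (all but Bid) held a halving.

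**Figure D1:**
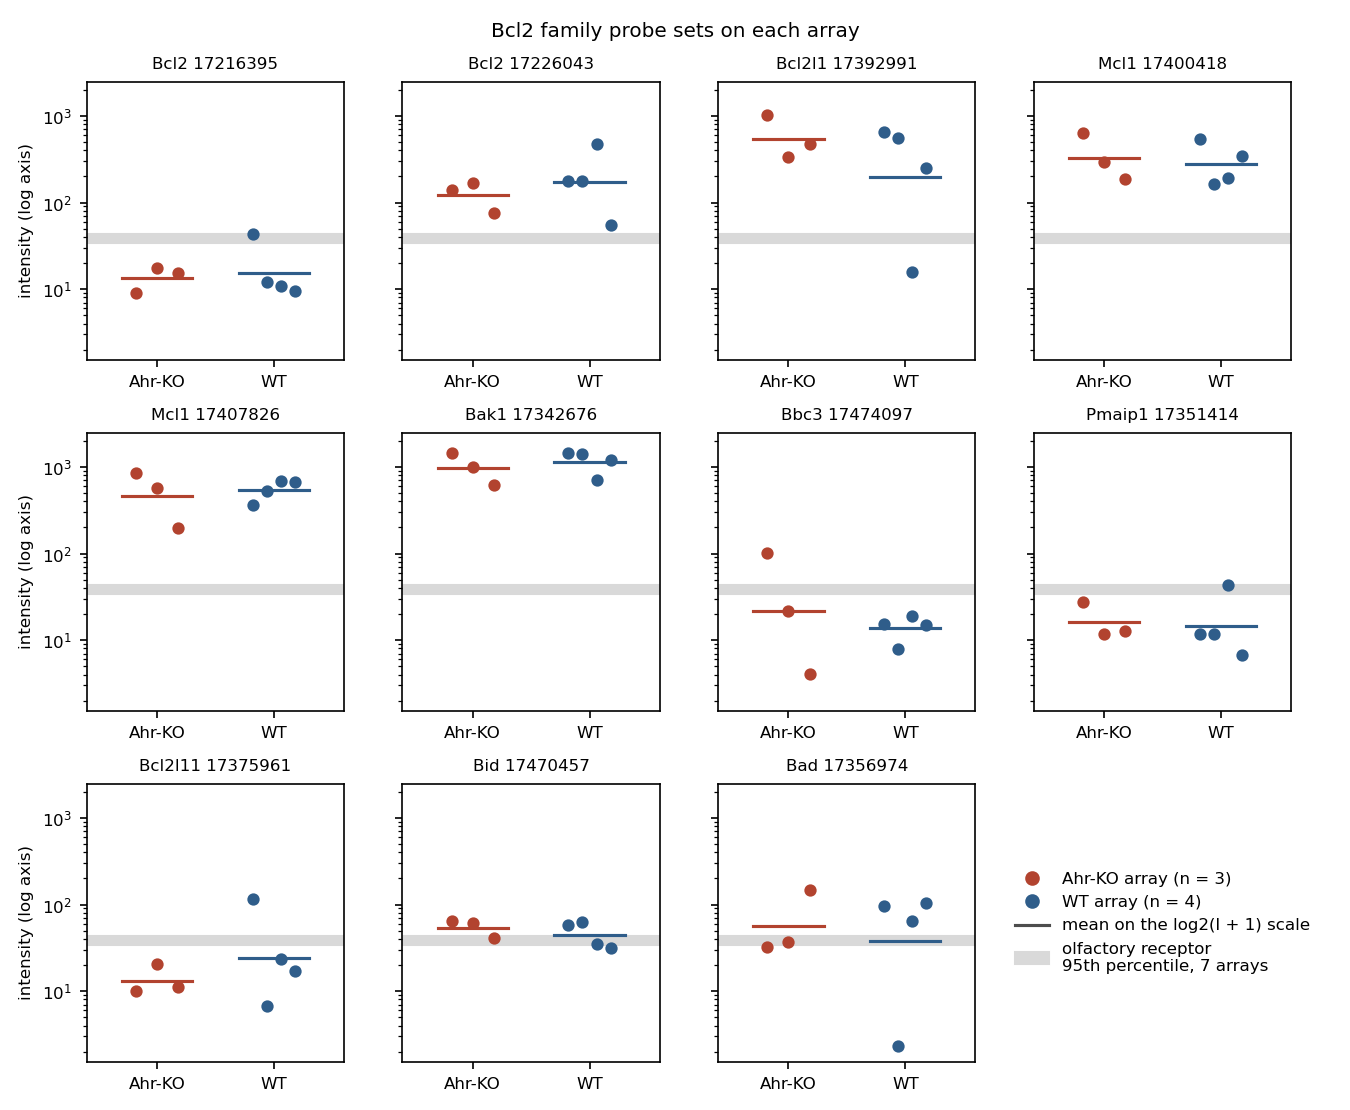
Intensity (log axis) of each of the 11 Bcl2 family probe sets on the 3 Ahr-KO arrays (red, left) and 4 WT arrays (blue, right), with the group mean on the log2(intensity + 1) scale as a bar and the range of the olfactory receptor mark in grey. Bcl2 17226043, both Mcl1 probe sets and Bak1 lie above the mark on every array, the groups overlap in all panels, and single arrays stand far from their group for Bcl2l1, Bad, Bbc3 and Bcl2l11.

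Among the survival genes, Bcl2 was measured clearly by 1 of its 2 probe sets. Bcl2 encodes the founding member of the family, which guards the mitochondrial membrane. Probe set 17226043 stood at 139, 170.0 and 75.2 on Ahr-KO arrays and at 179, 179, 477 and 55.6 on WT arrays. The Ahr-KO values lay within the WT range, and WT replicate 3 was the highest. Its log2 difference was -0.50 ± 0.75 (SE; 95% interval -2.22 to 1.23; limma adjusted p = 0.968), and -0.0043 without WT replicate 3. Probe set 17216395 stood at 9.11, 17.8 and 15.3 on Ahr-KO arrays and at 42.9, 12.2, 10.8 and 9.42 on WT arrays. It exceeded the mark on WT replicate 1 alone, and its difference of -0.16 ± 0.62 (SE) describes values near background.

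Bcl2l1, whose main product Bcl-xL is a survival protein of maturing erythroid cells and platelets, had the largest difference of the members. It stood at 1016, 339 and 476 on Ahr-KO arrays, against 645, 552, 15.8 and 248 on WT arrays. WT replicate 3 fell below the background mark while the other 6 arrays were well above it, and 2 WT arrays exceeded 2 of the 3 Ahr-KO arrays. The Ahr-KO arrays averaged 611 ± 358 (SD, n = 3) and the WT arrays 365 ± 288 (SD, n = 4). The log2 difference was 1.48 ± 1.25 (SE; 95% interval -1.42 to 4.38; limma unadjusted p = 0.273, adjusted p = 0.963). Without WT replicate 3 it was 0.30. The residual SD of Bcl2l1, 1.96 log2 units, exceeded that of 88.5% of tested probe sets.

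Mcl1, whose short-lived product blocks Bak and BH3-only proteins, was above the mark on all arrays with both probe sets, which differed in sign. Probe set 17400418 stood at 641, 296 and 187 on Ahr-KO arrays and at 539, 163, 191 and 349 on WT arrays. Probe set 17407826 stood at 844, 571 and 198 on Ahr-KO arrays and at 360.2, 527, 692 and 662 on WT arrays. By both probe sets Ahr-KO replicate 1 was the highest and Ahr-KO replicate 3 the lowest of its group, while WT replicate 1 was the highest WT array by one and the lowest by the other. The log2 differences were 0.25 ± 0.64 (SE; 95% interval -1.24 to 1.73; limma adjusted p = 0.981) and -0.25 ± 0.60 (SE; 95% interval -1.65 to 1.15; limma adjusted p = 0.979). Each difference turned its sign when 1 array was left out: 17400418 gave -0.23 without Ahr-KO replicate 1 and -0.0069 without WT replicate 2, and 17407826 gave 0.35 without Ahr-KO replicate 3.

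The 2 probe sets of Bcl2 and of Mcl1 also differed in where they stand in the table. The 15 annotated rows on each side of a member, in order of probe set number, belong mostly to genes of one strand. Around Bcl2 17226043, 27 of 27 neighbours with a known strand lay on the strand of Bcl2, and around Mcl1 17400418 this held for 19 of 20. Around Bcl2 17216395, 22 of 23 neighbours lay on the opposite strand, and around Mcl1 17407826, 22 of 25. For the other members with a promoter window, 17 to 27 neighbours shared the gene's strand and 0 to 3 did not. The platform annotation gives no strand or position for a probe set, so which strand these probe sets read was not tested.

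Of the effectors, Bak1 alone was measured. Bak1 encodes a membrane-resident pore former that works beside Bax. Its probe set was above the mark on all 7 arrays, at 1468, 993 and 619 on Ahr-KO arrays and 1460.2, 1401, 715 and 1206 on WT arrays. The 2 groups covered nearly the same range. The Ahr-KO arrays averaged 1027 ± 426 (SD, n = 3) and the WT arrays 1195 ± 338 (SD, n = 4). The log2 difference was -0.25 ± 0.51 (SE; 95% interval -1.43 to 0.93; limma adjusted p = 0.974), and it was 0.07 without Ahr-KO replicate 3. In folds, that interval runs from 0.37 to 1.90 times WT.

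Of the 5 BH3-only genes, Bbc3, Pmaip1 and Bcl2l11 exceeded the background mark on 1 array only. Bid, which links death receptors to mitochondria once caspase-8 has cut it, was the steadiest member. It stood at 63.7, 60.6 and 40.9 on Ahr-KO arrays and at 58.6, 63.2, 34.5 and 31.7 on WT arrays, above the mark on all Ahr-KO arrays and 2 WT arrays. Its difference was 0.26 ± 0.47 (SE; 95% interval -0.84 to 1.36; limma adjusted p = 0.970), and its residual SD of 0.44 log2 units was below that of most tested probe sets: 11.6% had a smaller one. The sign of the Bid difference was positive without any single array, between 0.10 and 0.46.

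Bad, a sensor of growth factor withdrawal that is held inactive by phosphorylation, was uneven. It stood at 32.0, 36.8 and 146 on Ahr-KO arrays, against 96.3, 2.34, 64.9 and 104 on WT arrays. WT replicate 2 was far below the other WT arrays and Ahr-KO replicate 3 above all others. The log2 difference of 0.55 ± 1.27 (SE; 95% interval -2.39 to 3.49; limma adjusted p = 0.977) became -0.63 when WT replicate 2 was left out and -0.13 when Ahr-KO replicate 3 was.

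Bbc3 and Pmaip1 encode Puma and Noxa, BH3-only proteins known as p53 targets. Bbc3 stood at 102, 21.7 and 4.10 on Ahr-KO arrays and at 15.2, 7.91, 18.8 and 14.99 on WT arrays. It exceeded the mark on Ahr-KO replicate 1 alone, and its difference was 0.65 ± 0.95 (SE; limma adjusted p = 0.967) with all arrays and -0.44 without that array. Pmaip1 stood at 27.8, 11.8 and 12.7 on Ahr-KO arrays and at 11.7, 11.8, 43.7 and 6.77 on WT arrays. It exceeded the mark on WT replicate 3 alone. Its difference was 0.15 ± 0.69 (SE; limma adjusted p = 0.990). The Pmaip1 difference was -0.22 without Ahr-KO replicate 1 and -0.18 without WT replicate 4, 2 arrays on which it lay below the mark. For both genes the values lay below the mark on all but 1 array.

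Bcl2l11 encodes Bim, a BH3-only protein that binds all the main survival proteins and is induced when cytokine support is lost. It stood at 9.93, 20.5 and 11.2 on Ahr-KO arrays and at 114, 6.75, 23.3 and 16.9 on WT arrays. WT replicate 1 was the only array above the mark. The log2 difference was -0.82 ± 0.88 (SE; 95% interval -2.86 to 1.23; limma adjusted p = 0.963), and -0.08 without WT replicate 1. In this amplified RNA, absence of the transcript and a level too low for the probe set were not distinguishable.

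**Figure D2:**
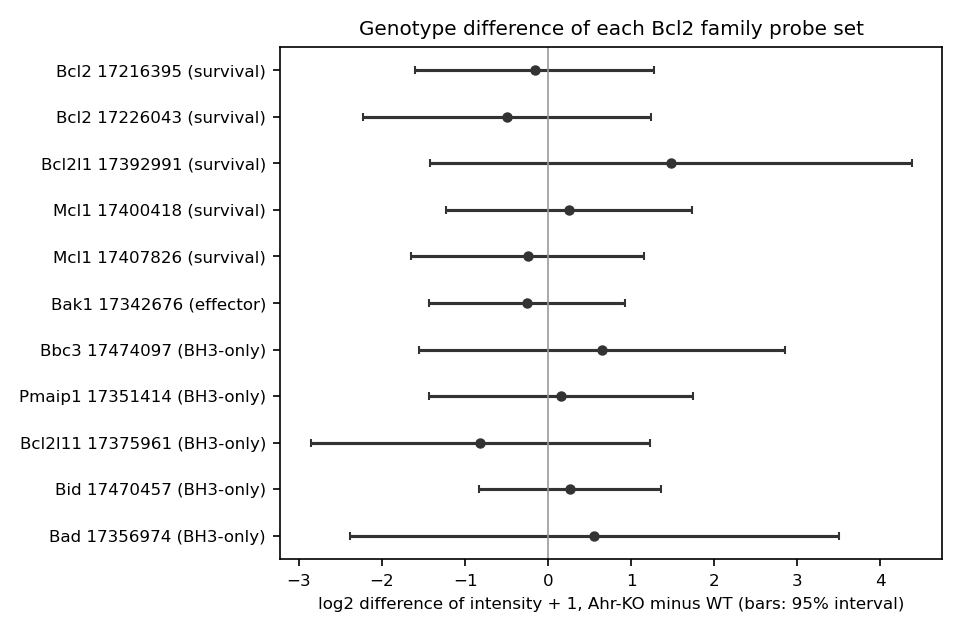
Log2 difference of intensity + 1, Ahr-KO minus WT, for each Bcl2 family probe set, with 95% intervals from the limma fit on 7 arrays as bars. All 11 intervals cover 0; the narrowest belong to Bid and Bak1 and the widest to Bad and Bcl2l1.

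**Figure D3:**
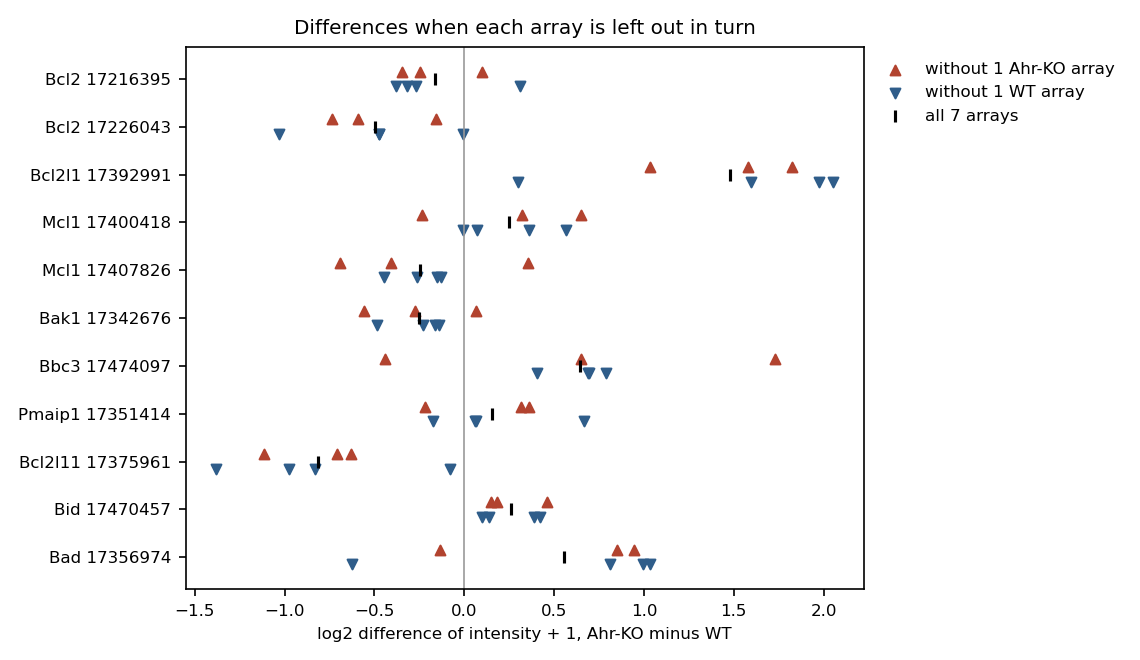
The same log2 differences with all 7 arrays (black ticks) and with 1 array left out (red triangles for an Ahr-KO array, blue for a WT array). Bcl2 17226043, Bcl2l1, Bcl2l11 and Bid keep the sign they have with all 7 arrays in each of these 7 fits, although Bcl2 17226043 reaches -0.0043 and Bcl2l11 -0.08.

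Within both groups the members were uneven between arrays. Ahr-KO replicate 1 was the highest of the 3 Ahr-KO arrays for 7 of 11 probe sets, against 31.0% of all tested probe sets. Ahr-KO replicate 3 was the lowest for 6 of 11, against 33.9%. In the WT group replicate 1 was the highest for 5 of 11, against 24.7% of all tested probe sets. WT replicates 2 and 4 were each the lowest for 4 of 11, against 33.1% and 18.5%. These counts describe the arrays, and their source was not tested.

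The survival and the death genes were also set side by side within arrays. Each gene was taken by its probe set of higher mean, as the log2 distance from its own mean over the 7 arrays. For Mcl1 this was 17407826, whose neighbours in the table lay mostly on the opposite strand, and for Bcl2 17226043. The distances were averaged over the 3 survival genes and the 6 measured death genes. The survival mean was 0.80, 0.18 and -0.55 on Ahr-KO arrays and 0.29, 0.40, -0.68 and -0.43 on WT arrays. The death mean was 0.48, 0.014 and -0.34 on Ahr-KO arrays and 0.65, -0.95, 0.23 and -0.09 on WT arrays. Survival minus death averaged 0.09 ± 0.27 on the Ahr-KO arrays (SD, n = 3) and -0.07 ± 0.98 on the WT arrays (SD, n = 4). With the other Mcl1 probe set, 17400418, the values were 0.18 ± 0.22 on the Ahr-KO arrays and -0.14 ± 0.97 on the WT arrays (SD). On the 3 Ahr-KO arrays both kinds of gene were high or low together, and the WT arrays spread further, from -0.92 on replicate 3 to 1.35 on replicate 2. Values below the background mark enter both, among them Bcl2l1 at 15.8 on WT replicate 3 and Bad at 2.34 on WT replicate 2. Of the 6 death genes, Bbc3, Pmaip1 and Bcl2l11 each exceeded the mark on 1 array only. With either Mcl1 probe set the 2 group means differed by less than the SD of the WT arrays. Against the smaller SD of the Ahr-KO arrays, they differed by less with the first Mcl1 probe set and by more with the other. An SD of single arrays is not the error of a difference of means, and the group means were not tested against each other.

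**Figure D4:**
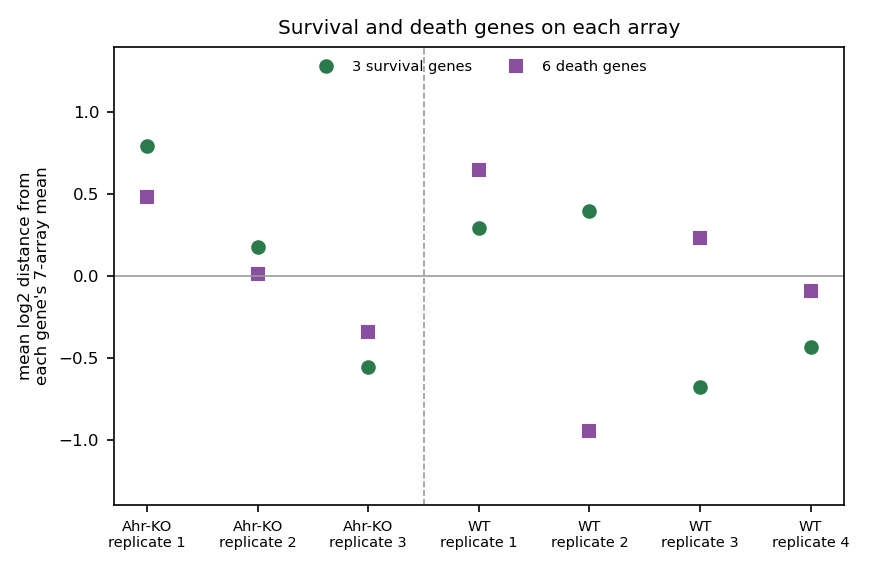
Mean log2 distance from each gene's own 7-array mean for the 3 survival genes (green circles) and the 6 measured death genes (purple squares), with Ahr-KO arrays left of the dashed line and WT arrays right of it. Mcl1 is taken by probe set 17407826. WT replicate 2 shows the widest gap, with survival genes at 0.40 and death genes at -0.95. Of the 6 death genes, Bad, Bbc3, Pmaip1 and Bcl2l11 lay below the background mark on that array.

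The rest of the pathway was described by 5 lists of genes, each gene by its probe set of highest mean. No list had a gene past the adjusted threshold, and 1 of 54 genes had an unadjusted p under 0.05, against 4.21% of all tested probe sets. The groups did not overlap for 4 of the 54 (Apaf1, Naip2, Fasl and Foxo1), against 5.74% of all tested. Of 11 measured further family members, 8 were higher and 3 lower in Ahr-KO, with a median log2 difference of 0.46. Of these 11, 5 exceeded the mark on no array. Bok, an effector-like member, stood at 1195, 36.7 and 23.9 on Ahr-KO arrays and between 7.32 and 105 on WT arrays. Its difference of 1.84 ± 1.45 (SE; limma adjusted p = 0.963) was 0.08 without Ahr-KO replicate 1. Bcl2a1a, a survival member with near-identical copies that its probes may share, exceeded the mark on no array.

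Downstream of the mitochondrion, 7 of 14 measured genes were higher and 7 lower in Ahr-KO, with a median of 0.04. Apaf1, the scaffold of the apoptosome, was the gene with an unadjusted p under 0.05. It stood at 3.88, 13.2 and 23.6 on Ahr-KO arrays and at 99.8, 40.0, 38.8 and 67.5 on WT arrays. No Ahr-KO value reached the lowest WT value, but all 3 Ahr-KO values and 2 of the WT values lay below the background mark. The log2 difference was -2.28 ± 0.67 (SE; limma unadjusted p = 0.00983, adjusted p = 0.963), and -1.38 with 16 added to the intensity in place of 1. Casp9, the initiator caspase that Apaf1 activates, was above the mark on all arrays and differed by -0.69 ± 0.53 (SE; limma adjusted p = 0.963).

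Of the 6 inhibitors of apoptosis, 4 were higher and 2 lower, with a median of 0.72. Xiap, which binds and blocks caspases, was above the mark on all arrays, at 200.1, 108 and 471 on Ahr-KO arrays and 132, 47.0, 90.3 and 76.0 on WT arrays. Only Ahr-KO replicate 2 lay below a WT array. Its difference was 1.41 ± 0.63 (SE; limma unadjusted p = 0.0567, adjusted p = 0.963), or 0.86 without Ahr-KO replicate 3. Naip2, a bacterial sensor of the same protein family, differed by 1.82 ± 0.96 (SE; limma adjusted p = 0.963), with groups that did not overlap. It stood at 88.1, 49.5 and 63.3 on Ahr-KO arrays and at 46.7, 2.07, 18.6 and 41.5 on WT arrays, and its difference was 0.95 without WT replicate 2.

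The death receptor arm had 5 genes higher and 3 lower of 8 measured, with a median of 0.53. Fadd, the adaptor that recruits caspase-8, differed by -0.60 ± 0.46 (SE; limma adjusted p = 0.963), and Fasl, the ligand of Fas, exceeded the mark on no array. Without Ahr-KO replicate 2 that median was -0.16. Of 15 measured regulators of the family, 6 were higher and 9 lower, with a median of -0.17. Without Ahr-KO replicate 1 or 3 or WT replicate 4 it was 0.09, 0.14 or 0.013. Foxo1, a transcription factor known to raise Bcl2l11, stood at 26.9, 50.7 and 63.1 on Ahr-KO arrays and at 107, 79.1, 69.0 and 71.1 on WT arrays. The groups did not overlap, and the difference was -0.85 ± 0.48 (SE; limma adjusted p = 0.963). Ddit3, a stress transcription factor that represses Bcl2 in other cells, differed by -1.92 ± 1.30 (SE; limma adjusted p = 0.963), and by -0.18 without Ahr-KO replicate 3.

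Genes used as markers of other blood cells were uneven beside these values. Of 12 granulocyte and monocyte markers, 11 were higher in Ahr-KO, against 48.3% of all tested probe sets. Of the 12, 7 exceeded the mark on all arrays and 1 on none. Their summed intensity ran from 7963 to 20449.8 on Ahr-KO arrays and from 2577 to 18702 on WT arrays. WT replicate 1 stood apart as the array with the lowest sum: without it 7 of the 12 were higher and 5 lower, and the lowest WT sum was 8135. The groups did not overlap for 1 of the 12, Fcgr3, against 5.74% of all tested. It stood at 136, 55.4 and 139.7 on Ahr-KO arrays and at 17.3, 54.2, 30.1 and 23.5 on WT arrays. Its log2 difference was 1.80 ± 0.58 (SE; limma unadjusted p = 0.0151, adjusted p = 0.963). Of 7 measured B lymphoid markers, all were lower in Ahr-KO (4 to 6 with 1 array left out), 0 exceeded the mark on all arrays and 4 on none, with sums of 138 to 195 on Ahr-KO arrays and 160.3 to 296 on WT arrays. Of 9 T and NK markers, 6 were higher in Ahr-KO, 2 exceeded it on all arrays and 5 on none, with sums of 429 to 1119 on Ahr-KO arrays and 236 to 656 on WT arrays. Of 8 macrophage and dendritic markers, 7 were lower in Ahr-KO, 2 exceeded the mark on all arrays and 2 on none, with sums of 221 to 801 on Ahr-KO arrays and 591 to 961 on WT arrays. The groups did not overlap for 3 of the 8, against 5.74% of all tested probe sets. Of these 3, Adgre1 exceeded the mark on no array and Mertk on 1. The other, H2-Eb1, encodes a class II antigen-presenting chain. It stood at 16.4, 43.4 and 132 on Ahr-KO arrays and at 170.1, 441, 228 and 159.6 on WT arrays, a log2 difference of -2.30 ± 0.75 (SE; limma unadjusted p = 0.0163, adjusted p = 0.963).

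Of 5 measured megakaryocyte markers, 4 were lower in Ahr-KO and 2 exceeded the mark on all arrays, with sums of 953 to 1532 on Ahr-KO arrays and 955 to 2564 on WT arrays. The platelet glycoprotein gene Gp9 stood at 234, 235 and 204 on Ahr-KO arrays and at 358, 673, 1566 and 494 on WT arrays. Its groups did not overlap, and its log2 difference was -1.55 ± 0.58 (SE; limma unadjusted p = 0.0293, adjusted p = 0.963). Of 5 measured erythroid markers, 3 were higher and 2 lower, 0 exceeded the mark on all arrays and 0 on none, with sums of 199.8 to 969 on Ahr-KO arrays and 241 to 553 on WT arrays. The mast cell and basophil list had 4 markers higher and 3 lower of 7 measured. Of these, 0 exceeded the mark on all arrays and 2 on none, with sums of 615 to 2598 on Ahr-KO arrays and 112 to 2935 on WT arrays. Leaving out WT replicate 1 gave 2 erythroid markers higher and 3 lower, and 3 mast cell markers higher and 4 lower. Hdc, of the mast cell list, was the only marker of these 7 lists listed at 0 on an array. Fcgr3, H2-Eb1 and Gp9 were chosen after their values were seen. Family members are expressed in such blood cells too. Expression of these markers within the HSCs, the number of other cells in the sort and the RNA per cell cannot be told apart in bulk samples. The part of these markers in the members' values was not tested.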

How the data were processed

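The deposited table holds 1 linear intensity per probe set and array. The submitters' processing notes name Affymetrix Expression Console; not given in the sources used here are how these deposited intensities were summarized, background-corrected and normalized, and the genome build. No detection calls were used, and the number of arrays limits the precision.

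Rows were named through the platform annotation: 23521 had 1 symbol, 1814 several, and 15820 were unnamed here. Of those with 1 symbol, 23328 were matched by Entrez ID to the RefSeq table of GRCm38.p6 and took its symbols. Intensities were transformed as log2(intensity + 1), which understates the change of dim genes, and fitted with limma 3.58.1 (lmFit, eBayes; R 4.3.3) on 7 arrays, with no covariate beside genotype. Two-sided p-values were adjusted over 25335 probe sets, with a threshold of 0.05. SE and 95% intervals are moderated. Differences are Ahr-KO minus WT. The mean estimates and interval coverage of the fit were checked on simulated arrays with independent normal noise. Its power to find changes is not given here.

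The members, the lists and the background mark were chosen with earlier results of these data known. Text names every member, Ahr, and the 2 genes of each pathway list with the smallest unadjusted p; markers and genes named outside this rule are given as values. The alternatives were each array left out, a replicate block, quantile normalization, median centring, a pseudocount of 16, a filter at the median level, all 41155 rows, array weights, and a trended, robust variance prior. Counts of the gene lists without single arrays were added after the data were seen. Promoter windows come from RefSeq.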

Additional observations from a re-analysis of the deposited data

Results flagged for a closer look

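In the group of 4 WT arrays, the gap of the highest or lowest array to its nearest neighbour, as a share of the group's whole range of log2 values, was compared with Dixon's 95% critical value for 4 samples. Of 22 probe sets examined this way, 3 exceeded it; chance flags about 1 in 20 groups. Groups of 3 were not examined. For Bad, WT replicate 2 was the lowest, at 2.34 against 64.9 to 104 on the other WT arrays, and the gap was 0.864 of the range. For Bcl2 17216395, WT replicate 1 was the highest, at 42.9 against 9.42 to 12.2, with a gap of 0.837. For the stress factor gene Ddit3, WT replicate 2 was the highest, at 497 against 188 to 206, with a gap of 0.903. WT replicate 2 was also the array with the smallest share of probe sets above the background mark; its part in these values was not tested.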

How the results depend on the processing

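With any of the 15 alternatives, 0 member probe sets passed an adjusted p of 0.05, and 0 of all probe sets tested; the lowest adjusted p of a member was between 0.931 and 0.996 in these fits, and that of any probe set between 0.223 and 0.981, with 572 (after the filter) to 1781 (all rows) probe sets at an unadjusted limma p under 0.05. No member had an unadjusted p under 0.05 in any of them, and the lowest was 0.0556, for Bbc3 without Ahr-KO replicate 3. The filter at the median level kept 7 of the 11 member probe sets. Leaving out single arrays turned the sign of 7. Over these fits the log2 difference of Bcl2 17216395 ran from -0.38 to 0.31, with 0.10 without Ahr-KO replicate 1 and 0.31 without WT replicate 1. Mcl1 17400418 ran from -0.23 (without Ahr-KO replicate 1) to 0.65, with -0.0069 without WT replicate 2. Mcl1 17407826 ran from -0.69 to 0.35 and Bak1 from -0.56 to 0.067, each at its highest without Ahr-KO replicate 3. Bbc3 ran from -0.44 to 1.73 and Pmaip1 from -0.22 to 0.66, each lowest without Ahr-KO replicate 1; Pmaip1 was at -0.18 without WT replicate 4. Bad ran from -0.63 (without WT replicate 2) to 1.03, with -0.13 without Ahr-KO replicate 3. The other named probe sets (4 of members, 10 of pathway genes, and Ahr) kept their sign. The causes were not tested beyond the arrays left out. With the replicate number as a block, on the 6 arrays whose numbers occur in both groups, Pmaip1 was at -0.18, 5 members were higher and 6 lower, and no adjusted call changed. Among the 54 pathway genes, 4 had an unadjusted limma p under 0.05 with this block, against 1120 of all 25335 tested probe sets. They were Bok (0.0412), Bcl2a1a (0.0433), Naip2 (0.0428) and Bcl2l14 (0.0467), while that of Apaf1 became 0.0594. Of the 4, Bcl2a1a exceeded the background mark on no array, and Bcl2l14 on Ahr-KO replicate 2 and WT replicate 2 only. Same-numbered arrays did not deviate together (correlations of 0.023, -0.065 and 0.010 across probe sets), so the numbers were not read as pairs.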

Other observations

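Values of 3 other family genes follow, chosen after they were seen. Bcl2l14, a less studied member of the family, stood at 5.87, 1647 and 7.72 on Ahr-KO arrays and at 27.2, 4107, 19.8 and 10.3 on WT arrays. It exceeded the background mark on Ahr-KO replicate 2 and WT replicate 2 only, and its residual SD was 4.15 log2 units. Bnip3, a hypoxia-induced mitophagy gene, stood at 22.1, 222 and 39.8 on Ahr-KO arrays and at 54.3, 34.2, 31.6 and 33.5 on WT arrays. Bik, a BH3-only gene, exceeded the mark on all 7 arrays, at 105, 166 and 104 on Ahr-KO arrays and 71.9, 192, 92.4 and 71.1 on WT arrays, with a log2 difference of 0.32 ± 0.52 (SE; limma adjusted p = 0.968).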
